A study of Homo sapiens with 4 samples.

Results

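The let-7 family was read out as every strand in the table named let-7 with any letter, copy number or arm, together with miR-98, which belongs to the same family. These names gave 18 of the 1345 rows of a mature miRNA table from HCT116 cells, a human colorectal carcinoma line. Main strands, 9 in number, come from the 5' arm of the hairpin or carry no arm in their name (let-7c and miR-98), and the other 9 are 3' arm strands, called minor here. The rule used names only and no measured value, though it was set with earlier results of these data known.

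The 4 small-RNA libraries came from 2 HCT116 lines, each carrying a different short hairpin RNA (sh1 or sh2) that doxycycline switches on against SAE2, the catalytic subunit of the enzyme that activates SUMO. The 2 minus libraries (replicate 1 labelled sh1-minus, replicate 2 labelled sh2-minus) were read as uninduced and the 2 plus libraries (replicate 1 labelled sh-plus, replicate 2 labelled sh2-plus) as induced. The protocol of 3 days of doxycycline is written identically for all 4 libraries, and only the words minus and plus support this reading. The label of plus replicate 1 gives no line, and it was placed in the sh1 line by elimination. All groups share the HCT116 background and an inducible shRNA against SAE2. No library with doxycycline and an unrelated shRNA was analysed here, and effects of doxycycline itself cannot be told apart from those of the knockdown. Whether each line is 1 clone is not given in the sources used here. With 1 library per line and condition, the spread within a group is that between these lines.

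A miRNA is cut from a hairpin, and of the duplex that results 1 strand, the guide, is kept by an Argonaute protein while its partner is mostly lost. The seed, bases 2 to 8 of the guide, pairs with target mRNAs. The let-7 guides act as differentiation and anti-growth miRNAs that repress RAS, MYC and HMGA2 mRNAs, and they are abundant in most adult epithelia. Their maturation is held back by LIN28 proteins, which bind the loop of the hairpin. Several hairpins at separate places in the genome yield the same let-7a guide, and likewise for let-7f, while their minor strands differ, so a minor strand tells copies apart that the guide cannot.

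The main strands are shown because all 9 share the seed GAGGUAG (capitals) and differ in few bases outside it. The sequences are RefSeq entries (GRCh38.p14), which held 17 of the 18 members. let-7f-2-3p is named only.
let-7a-5p: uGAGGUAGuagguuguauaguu
let-7f-5p: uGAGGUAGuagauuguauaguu
let-7g-5p: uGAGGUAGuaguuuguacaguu
let-7i-5p: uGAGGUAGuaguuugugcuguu
miR-98: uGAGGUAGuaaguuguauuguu
let-7b-5p: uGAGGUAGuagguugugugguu
let-7e-5p: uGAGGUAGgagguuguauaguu
let-7d-5p: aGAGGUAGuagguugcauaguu
let-7c: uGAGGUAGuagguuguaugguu
Counted from 1 at the 5' end and with the base of let-7a-5p first, let-7f-5p differs from let-7a-5p by G12A alone, let-7e-5p by U9G and let-7c by A19G. let-7i-5p is the farthest from let-7a-5p, with 4 differences. How reads with a mismatch were assigned among these near-identical names is not given in the sources used here, so a small exchange of reads between them was not tested. It bears most on let-7c, which lies 1 base away from let-7a-5p and far below it in level.

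The minor strands, again with bases 2 to 8 in capitals, fall into 5 seed groups and are shown because the strands that fell share a seed with strands that did not pass.
let-7a-3p: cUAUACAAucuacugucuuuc
let-7b-3p: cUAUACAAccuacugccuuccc
let-7f-1-3p: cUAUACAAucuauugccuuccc
let-7a-2-3p: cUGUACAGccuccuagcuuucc
let-7g-3p: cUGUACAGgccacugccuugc
let-7d-3p: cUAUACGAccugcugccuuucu
let-7e-3p: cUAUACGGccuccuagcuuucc
let-7i-3p: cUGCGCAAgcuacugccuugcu
let-7a-3p, let-7b-3p and let-7f-1-3p have 1 seed in common, and let-7a-2-3p and let-7g-3p another. The 2 minor strands of let-7a differ at 6 of 21 aligned positions, while let-7a-2-3p and let-7e-3p differ at 2 of 22.

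The hairpins of let-7a and let-7f show how copies with the same guide carry different partners. Mature strands listed in RefSeq are in capitals.
let-7a-1 (chr9:94175957-94176036, plus strand, GRCh38.p14): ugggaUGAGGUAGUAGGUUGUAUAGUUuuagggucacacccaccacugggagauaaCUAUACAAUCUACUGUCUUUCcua
let-7a-2 (chr11:122146522-122146593, minus strand): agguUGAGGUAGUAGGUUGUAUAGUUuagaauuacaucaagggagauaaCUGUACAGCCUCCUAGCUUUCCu
let-7a-3 (chr22:46112749-46112822, plus strand): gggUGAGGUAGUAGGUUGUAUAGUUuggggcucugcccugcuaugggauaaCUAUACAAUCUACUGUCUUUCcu
let-7f-1 (chr9:94176347-94176433, plus strand): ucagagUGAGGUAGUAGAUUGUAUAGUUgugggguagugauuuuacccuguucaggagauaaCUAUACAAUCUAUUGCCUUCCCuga
let-7f-2 (chrX:53557192-53557274, minus strand): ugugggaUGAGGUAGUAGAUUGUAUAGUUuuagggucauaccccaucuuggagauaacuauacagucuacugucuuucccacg
let-7a-3p is cut from both let-7a-1 and let-7a-3, so its value cannot be divided between chromosomes 9 and 22, whereas let-7a-2-3p comes from let-7a-2 alone. The submitters' processing notes name hg19 and GRCh37, the table has no coordinates, and all positions here are of GRCh38.p14. The letters GGAG, known from the LIN28 binding element, were searched on the RNA strand between the mature strands (for let-7f-2, from the end of the guide onward). They were found in 9 of the 12 let-7 and miR-98 hairpins and not in let-7a-3, let-7b and miR-98. Of 798 RefSeq hairpins with a listed 5' strand, whose loops vary in length, 8.65% held them. LIN28 mRNA is not measured by these libraries.

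Normalised counts summed to between 9700472 and 10519207 per library, or about 9566036 to 10302847 reads by the worth of 1 read estimated from the low values. Chi-square per degree of freedom between libraries of a group was 19.9 for the minus and 67.1 for the plus libraries, so neither pair was 1 library deposited in duplicate. All 8 epithelial and colon marker miRNAs were in the table, with a summed level of 268904 to 279543 in the minus and 317791 to 317898 in the plus libraries. Of the 8, 5 were called as rises, beside 13.4% of all miRNAs tested. The 6 blood markers summed to 991 to 1207 in the minus and 1022 to 1191 in the plus libraries, with miR-144-3p at or under 3 reads in all 4. Of the blood markers 4 were tested and none was called. The 5 stroma and endothelium markers summed to 15960 to 16012 and 13455 to 16189, with 1 rise and 1 fall among the 4 tested. Muscle, liver and neuron markers summed to at most 15.3, 58.2 and 31.8 in any library. The part of these shifts in the let-7 results was not tested.

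The guides were led by let-7f-5p in each of the 4 libraries. In normalised read counts, let-7f-5p stood at 251114 and 265518 in minus replicates 1 and 2 and at 270261 and 301798 in plus replicates 1 and 2. let-7g-5p followed at 135400 and 140664 in the minus and 136679 and 153767 in the plus libraries. Its hairpin lies on chromosome 3, and those of let-7f on chromosomes 9 and X. let-7a-5p, with 3 source hairpins, lay well below let-7f-5p, at 87542 and 90844 in the minus and 78701 and 83828 in the plus libraries. let-7i-5p, cut from a single hairpin on chromosome 12, was at 91835 and 89391 in the minus and 74444 and 76696 in the plus libraries, and its range over the 4 libraries overlapped that of let-7a-5p. Below a gap came miR-98, at 17618 and 17209 in the minus and 16504 and 15387 in the plus libraries. let-7b-5p was at 12955 and 13097 in the minus and 14688 and 14768 in the plus libraries. let-7e-5p was at 10700.0 and 10719 in the minus and 11380 and 11505 in the plus libraries, overlapping let-7d-5p at 10262 and 10240 and at 11784 and 10707. let-7c, at 221 and 217 in the minus and 227 and 204 in the plus libraries, was the lowest guide by a wide margin. In the order of the 9 guides, neighbours were thus separate over all 4 libraries except let-7a-5p with let-7i-5p and let-7e-5p with let-7d-5p. All guides are 22 bases long, but adaptor ligation favours some ends over others and the order is that of reads.

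**Figure D1:**
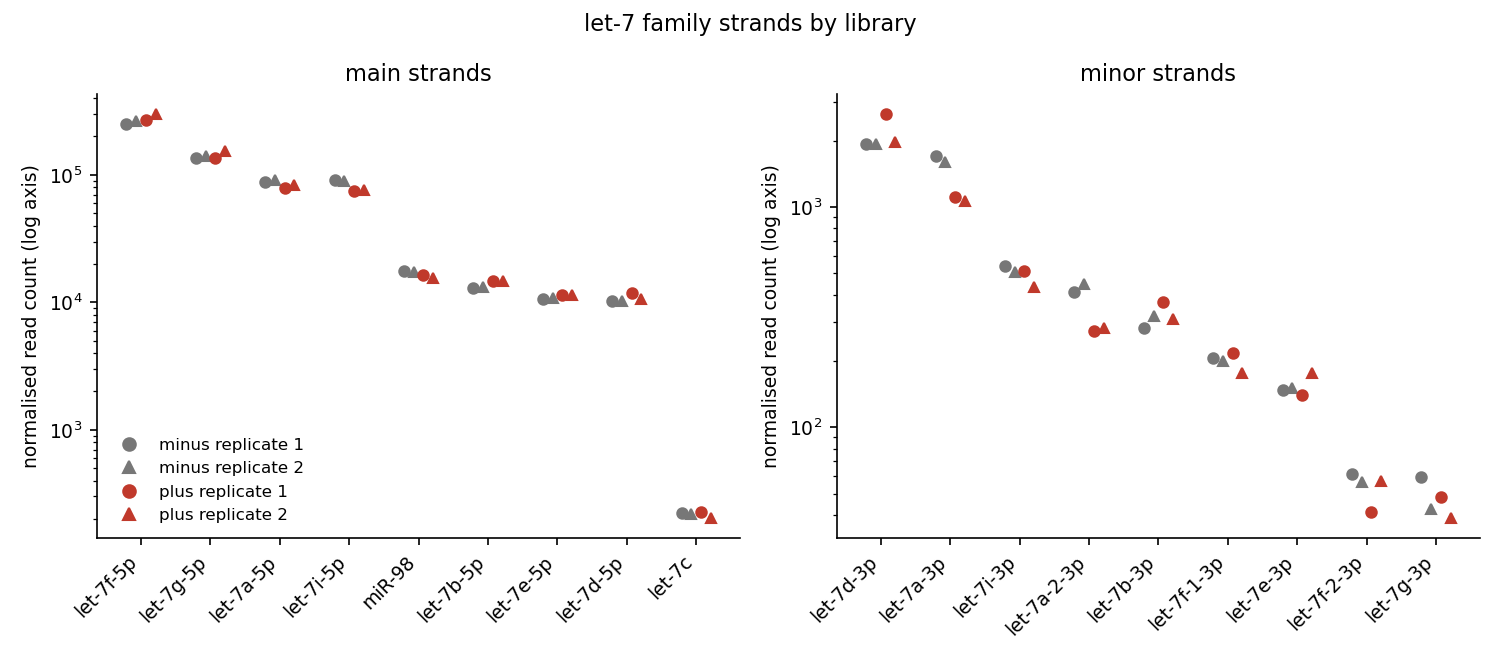
Normalised read count (log axis) of each let-7 family main strand (left) and minor strand (right) in the 4 libraries, minus in grey and plus in red, circles for replicate 1 and triangles for replicate 2. The guides span from about 200 for let-7c to 301798 for let-7f-5p, and the plus points lie clearly below the minus points for let-7a-3p and let-7a-2-3p.

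No difference in the summed level of the guides was detectable. The shares of several guides did not overlap between the groups, and for shares there is no background over all miRNAs. For levels, 62.9% of all miRNAs tested and 77.8% of the 9 guides did not overlap. The summed main strands were 617646 and 637898 in the minus and 614668 and 668660 in the plus libraries, an overlap of the groups (exact two-sided permutation p = 1). They made up 6.27% and 6.58% of all normalised counts in the minus and 6.25% and 6.36% in the plus libraries. Within the sum, the share of let-7f-5p was 40.7% and 41.6% in the minus and 44.0% and 45.1% in the plus libraries. The share of let-7i-5p was 14.9% and 14.01% in the minus and 12.1% and 11.5% in the plus libraries, and that of let-7a-5p 14.2% and 14.2% against 12.8% and 12.5%. The plus libraries were thus higher for the share of let-7f-5p and lower for those of let-7i-5p and let-7a-5p, without overlap. They were also higher for let-7b-5p and let-7g-5p and lower for miR-98 without overlap. The shares of let-7c, let-7d-5p and let-7e-5p overlapped. The number of reads of let-7f-5p per read of let-7a-5p, guides that differ in 1 base, was 2.87 and 2.92 in the minus and 3.43 and 3.60 in the plus libraries. Shares of 1 sum move against each other by construction. An exact two-sided permutation test gave p = 0.333 for each share without overlap and for the ratio, the lowest value possible with 2 libraries in each group.

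**Figure D2:**
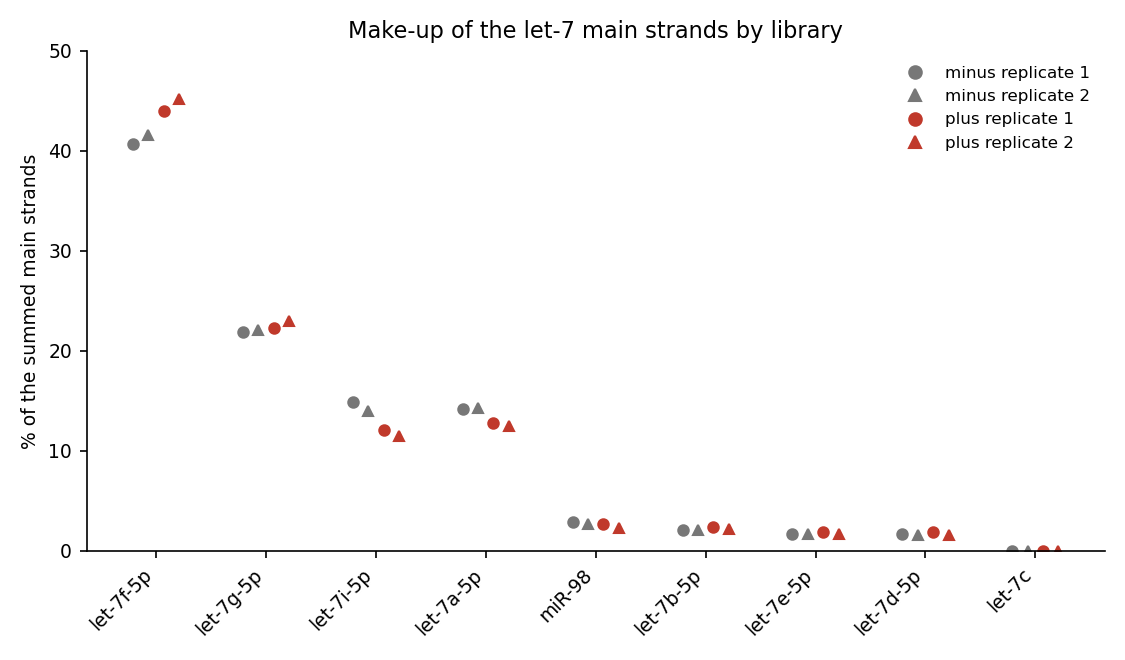
Share of each main strand in the summed let-7 main strands, in percent, by library (minus grey, plus red, circles replicate 1, triangles replicate 2). let-7f-5p stands at 40.7% and 41.6% in the minus and at 44.0% and 45.1% in the plus libraries, while let-7i-5p and let-7a-5p are lower in both plus libraries.

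Change with induction was tested with limma on log2(value + 1) over the 709 miRNAs of the table with a mean of at least 10, with p-values adjusted over all of them (Benjamini-Hochberg, threshold 0.05). The fit drew the variance of each strand mostly from miRNAs of similar level (43.0 prior degrees of freedom). These p-values therefore measure little of a strand's own spread between the lines. All 18 members passed the level filter. Of them 3 fell, none rose and 15 did not pass, while among all miRNAs tested 28.5% were called, 15.1% as falls and 13.4% as rises. Before adjustment 2 members had a p under 0.05 as rises, let-7b-5p and let-7d-3p. The median log2 change was −0.04 over the members and −0.03 over all miRNAs tested. The plus and minus libraries did not overlap for 10 members (55.6%), against 62.9% of all miRNAs tested. The plus libraries were above for 5 members (29.1% of all tested) and below for 5 (33.9% of all tested). For the members together neither share is above the background. Split by strand, 7 of the 9 main strands (77.8%) and 3 of the 9 minor strands (33.3%) did not overlap. That difference was not tested.

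Among the guides let-7i-5p was the 1 that fell, from 90613 ± 1728 to 75570 ± 1592 normalised counts (SD, n = 2 each), or 1.20-fold lower. On the log2 scale this was −0.26 ± 0.08 (SE, limma adjusted p = 0.0111). The call was lost under median-ratio scaling, where the log2 change was −0.20 (adjusted p = 0.115), and in each of the 4 fits that dropped a library (adjusted p from 0.0761 to 0.288), with log2 changes from −0.28 to −0.24. It was lost too without a level filter and without a mean-variance trend. let-7a-5p and miR-98, both lower in each plus library than in each minus library, had log2 changes of −0.13 and −0.13 and did not pass (limma adjusted p = 0.225 and 0.267). let-7b-5p, let-7f-5p, let-7d-5p and let-7e-5p were each higher in both plus libraries than in both minus libraries. Their log2 changes of 0.18, 0.15, 0.13 and 0.10 did not pass (limma adjusted p from 0.108 to 0.417). Under median-ratio scaling let-7b-5p passed as a rise at 0.24 (adjusted p = 0.0408), and under quantile normalization its value was −0.01. let-7g-5p and let-7c overlapped between the groups, with log2 changes of 0.07 and −0.02. Quantile normalization moved 3 guides further down, to −0.41 for let-7i-5p (adjusted p = 0.00279), −0.25 for let-7a-5p (0.0265) and −0.24 for miR-98 (0.0387), all 3 called as falls by limma. On the deposited scale the 9 guides moved by at most 0.26 on the log2 scale, and their median was 0.07.

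**Figure D3:**
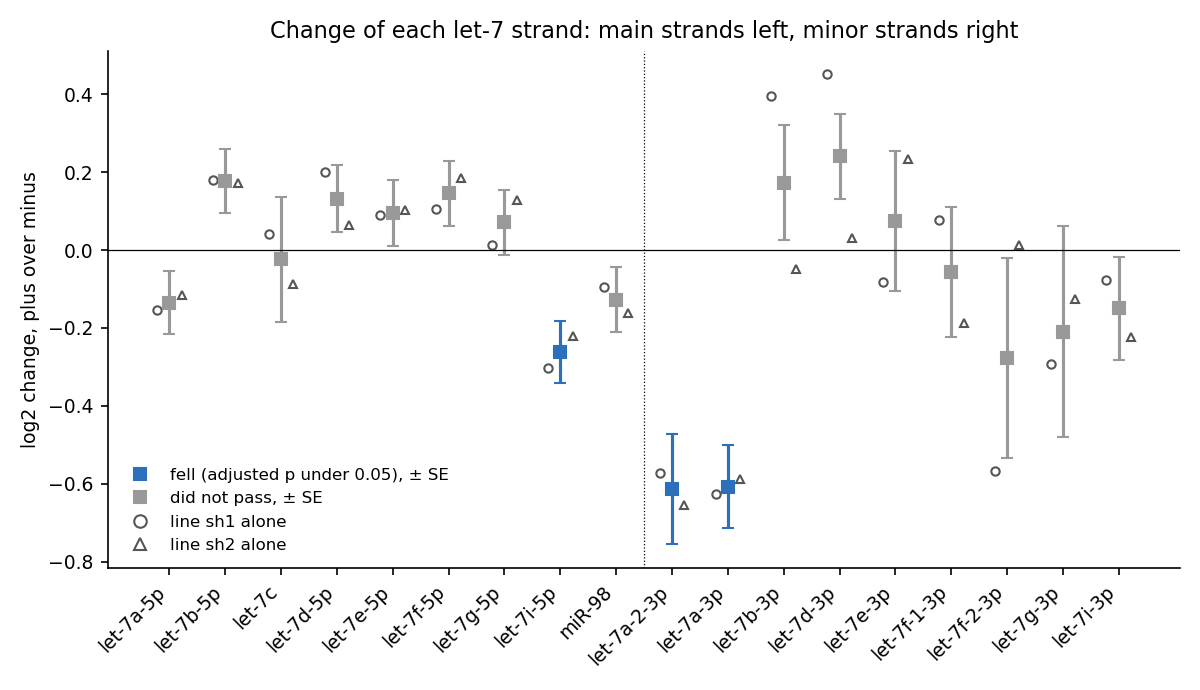
Log2 change, plus over minus, of the 9 main strands (left of the dotted line) and 9 minor strands (right), squares with standard error from the limma fit, blue where the strand fell and grey where it did not pass. Open circles and triangles give the change within line sh1 and line sh2 alone, with line sh1 assigned by elimination. The minor strands of let-7a lie at −0.61 in the fit and at −0.57 to −0.65 in the single lines.

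The minor strands held the larger changes, and both belonged to let-7a. let-7a-3p, the partner strand from the chromosome 9 and 22 copies, was at 1710 and 1593 normalised counts in the minus and 1107 and 1059 in the plus libraries. It fell 1.52-fold, from 1652 ± 83.1 to 1083 ± 33.9 (SD, n = 2 each), a log2 change of −0.61 ± 0.11 (SE, limma adjusted p = 2.01e-05). let-7a-2-3p, from the chromosome 11 copy, was at 409 and 446 in the minus and 275 and 283 in the plus libraries. It fell 1.53-fold, from 428 ± 26.1 to 279 ± 5.97 (SD, n = 2 each), a log2 change of −0.61 ± 0.14 (SE, limma adjusted p = 0.000811). For both strands the plus libraries lay below the minus libraries by much more than the libraries of a group differed. Within line sh1 the log2 changes were −0.63 for let-7a-3p and −0.57 for let-7a-2-3p, and within line sh2 they were −0.59 and −0.65. The calls did not stand with 1 plus library left out, with limma adjusted p-values of 0.0755 and 0.0888 without plus replicate 1 and 0.0547 and 0.0620 without plus replicate 2. The log2 changes then were −0.64 and −0.59, and −0.58 and −0.64. The calls were also lost without a level filter (0.0706 and 0.0799) and without a mean-variance trend (0.0702 for both).

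The other 7 minor strands did not pass. let-7d-3p, the partner strand with the highest level, was at 1936 and 1928 in the minus and 2648 and 1970 in the plus libraries. Its log2 change of 0.24 (limma adjusted p = 0.0940) rested mostly on plus replicate 1, and it was 0.03 without that library and 0.45 without plus replicate 2. With the line as a block let-7d-3p passed as a rise (adjusted p = 0.0417), and so it did under median-ratio scaling, at 0.30 (adjusted p = 0.0203). let-7i-3p, at 541 and 504 in the minus and 513 and 432 in the plus libraries, overlapped between groups and had a log2 change of −0.15, beside −0.26 for its guide. let-7b-3p (281 and 321 against 370 and 311) and let-7e-3p (148 and 150.2 against 140 and 177) had log2 changes of 0.17 and 0.08. The let-7f partner strands let-7f-1-3p, at 207 and 200.3 in the minus and 218 and 176 in the plus libraries, and let-7f-2-3p, at 61.5 and 56.7 against 41.2 and 57.2, had log2 changes of −0.06 and −0.28. let-7g-3p, the lowest member, was at 59.5 and 42.5 in the minus and 48.3 and 38.9 in the plus libraries. All 5 of these strands overlapped between the groups, as did let-7i-3p. For the 2 strands with the fewest reads, counting error alone is wide. For let-7f-2-3p about 121 reads in the minus stood against 96 in the plus libraries, a plus to minus ratio of 0.800 with a 95% exact binomial (Clopper-Pearson) interval of 0.606 to 1.05. For let-7g-3p the numbers were about 104 and 85, which gave a ratio of 0.824 and an interval of 0.612 to 1.11. Both intervals hold 1 as well as the fold of 0.656 measured for let-7a-3p. These intervals cover counting error only.

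Each minor strand was next set against its own guide, which removes any single scaling factor of a library. Minor strands made up very different parts of their guides. let-7d-3p stood at 18.9% and 18.8% of let-7d-5p in the minus and 22.5% and 18.4% in the plus libraries. let-7b-3p, let-7a-3p and let-7e-3p were at 1.23% to 2.52% of their guides in any library, let-7i-3p and let-7a-2-3p at 0.338% to 0.689%, and let-7f-1-3p, let-7g-3p and let-7f-2-3p at 0.0152% to 0.0823%. Across the 196 strand pairs of the table in which both strands reached the level filter, the median 3' to 5' ratio was 56.1%. This median takes the 3' over the 5' strand whichever is the main one, so it is not a median of minor strands. Every let-7 pair lay below it, with let-7f-2-3p above 1.02% of the pairs and let-7d-3p above 36.7% of them. Relative to its guide, let-7d thus had far more partner strand reads than any other let-7 pair, and let-7f and let-7g the fewest. let-7c and miR-98 had no 3' strand in the table. These are ratios of reads, and adaptor ligation favours some ends over others. let-7a has 3 hairpins and let-7f 2, and each copy's share of the guide is not measured, so the ratio of a copy-specific strand to the shared guide is a lower limit for its own hairpin.

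The 3' to 5' ratio was tested with limma over all 196 pairs, with a trend on the level of the rarer strand. Of the 9 let-7 ratios 2 fell, none rose (none either at an unadjusted p under 0.05) and 7 did not pass, against 23.5% of all pairs called, 11.7% in each direction. let-7a-3p was at 1.95% and 1.75% of let-7a-5p in the minus and 1.41% and 1.26% in the plus libraries. The ratio changed by −0.47 ± 0.11 on the log2 scale (SE, limma adjusted p = 0.000177). let-7a-2-3p was at 0.467% and 0.491% of the same guide in the minus and 0.349% and 0.338% in the plus libraries, a log2 change of −0.48 ± 0.14 (SE, limma adjusted p = 0.00432). Both partner strands of let-7a thus fell more than the guide they share. With the line as a block neither ratio passed (limma adjusted p = 0.0656 for let-7a-3p and 0.0668 for let-7a-2-3p, both under 0.05 unadjusted), and with 1 library left out between 0 and 1 of the 9 passed, the 1 being let-7a-3p without minus replicate 2. For let-7f the ratio of let-7f-1-3p to let-7f-5p had a log2 change of −0.20 and that of let-7f-2-3p of −0.42, the latter ± 0.26 (SE), neither past the threshold (limma adjusted p = 0.455 and 0.298). The let-7f-2-3p ratio, like both let-7a ratios, was lower in each plus library, at 0.0245% and 0.0214% in the minus and 0.0152% and 0.0190% in the plus libraries. The let-7f-1-3p ratio overlapped between the groups. How many of all pairs were without overlap was not counted. Single libraries moved the log2 changes of both let-7f ratios. With plus replicate 1 dropped, the log2 change was −0.27 for the let-7f-2-3p ratio and −0.44 for the let-7f-1-3p ratio, and with plus replicate 2 dropped the values were −0.58 and 0.03. The ratios of let-7b, let-7d, let-7e and let-7i had log2 changes from −0.02 to 0.11, and that of let-7g −0.28. The let-7g value was −0.01 without minus replicate 1 and −0.04 without plus replicate 2, against −0.55 without minus replicate 2 and −0.52 without plus replicate 1. Quantile normalization, which was tried for the ratios after the data had been seen, does not cancel between strands of unequal level. Under it the let-7a-3p ratio fell by 0.36 (limma adjusted p = 0.0121), the let-7a-2-3p ratio lost its call at −0.29 (0.135) and the let-7i-3p ratio was called as a rise at 0.36 (0.027). Under that normalization the guide let-7f-5p was at 0, as is any strand with the same rank in all 4 libraries. The values for let-7f-1-3p and let-7f-2-3p, −0.03 and −0.15, are therefore those of the partner strands alone. That for let-7g-3p was 0.05.

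**Figure D4:**
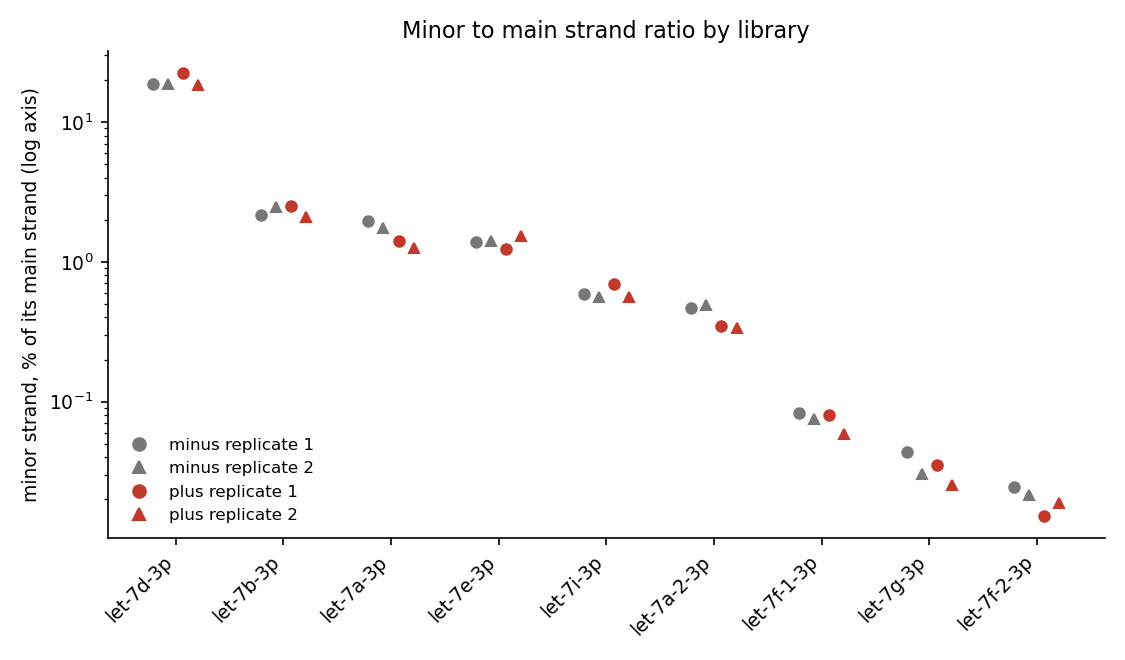
Each minor strand as a percentage of its main strand (log axis) in the 4 libraries, minus grey and plus red, circles replicate 1 and triangles replicate 2, ordered by mean. let-7d-3p stands near 19% of its guide and let-7f-2-3p near 0.02%. For let-7a-3p, let-7a-2-3p and let-7f-2-3p both plus points lie below both minus points.

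The let-7a copies can be set beside the hairpins that lie next to them. let-7a-1 lies 311 bases from let-7f-1 and 2798 bases from let-7d on chromosome 9, and let-7a-3 lies 864 bases from let-7b on chromosome 22. let-7a-2 lies on chromosome 11 on the same strand as miR-100 and miR-125b-1, 5636 and 46678 bases away. Per the GENCODE annotation, the chromosome 9 hairpins lie in an intron of a long noncoding RNA gene, let-7a-2 in an intron of MIR100HG and let-7a-3 and let-7b over an exon of MIRLET7BHG. Of the remaining copies, let-7f-2 and miR-98 lie in an intron of HUWE1, a ubiquitin ligase gene, let-7g in one of WDR82, let-7e in one of SPACA6, let-7c in one of MIR99AHG and let-7i in one of a long noncoding RNA gene. At the loci on chromosomes 9 and 22 the partner strands of the neighbours of let-7a did not pass. The number of let-7a-3p reads per let-7f-1-3p read was 8.28 and 7.95 in the minus and 5.08 and 6.03 in the plus libraries. Per let-7d-3p read it was 0.883 and 0.826 against 0.418 and 0.538, and per let-7b-3p read 6.08 and 4.96 against 2.99 and 3.41. Each of these ratios was lower in both plus libraries, with p = 0.333 in an exact two-sided permutation test, the lowest value possible here. By contrast let-7a-3p per let-7a-2-3p was 4.18 and 3.57 in the minus and 4.03 and 3.74 in the plus libraries. The groups thus overlapped, although these strands come from different chromosomes. On chromosome 11, miR-125b-1-3p per let-7a-2-3p was 6.02 and 5.77 in the minus and 5.42 and 5.63 in the plus libraries. This ratio too was lower in both plus libraries (exact two-sided permutation p = 0.333). let-7a-2-3p per miR-100-3p was 5.34 and 5.61 against 5.13 and 6.59, an overlap of the groups.

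On chromosome 11 the partner strands of both neighbours fell as well. miR-125b-1-3p was at 2465 and 2572 in the minus and 1489 and 1595 in the plus libraries, a log2 change of −0.71 ± 0.10 (SE, limma adjusted p = 3.9e-07). Its call was lost without plus replicate 1, without plus replicate 2, without a level filter and without a mean-variance trend. miR-100-3p was at 76.6 and 79.5 in the minus and 53.5 and 43.0 in the plus libraries, a log2 change of −0.69 (limma, adjusted p = 0.0271) whose call was lost without a level filter, without a trend, under quantile normalization and in each fit that dropped a library. The guide miR-125b-5p did not pass at −0.04, and miR-100-5p was called at −0.25 (adjusted p = 0.0427), with plus replicate 1 at 1159540 and plus replicate 2 at 1456187 against 1523766 and 1562967 in the minus libraries. Dropping plus replicate 1 left miR-100-5p at −0.08 and dropping plus replicate 2 put it at −0.41. Quantile normalization gave 0, as it does for any strand with the same rank in all 4 libraries. That value therefore says nothing about the size of its change. The call was lost in each fit that dropped a library, under median-ratio scaling and quantile normalization, at a minimum mean of 100, without a level filter and without a trend. miR-125b-1-3p relative to its guide had a log2 change of −0.67 (limma, adjusted p = 7.82e-09). The adjusted p of that ratio was 0.114 without a mean-variance trend, 0.0774 without plus replicate 1 and 0.0522 without plus replicate 2, and its call was lost in those 3 fits. The ratio of miR-100-3p to its guide did not pass, at −0.44 ± 0.25 (SE, limma adjusted p = 0.223). It ranged from −0.76 to −0.12 with a library left out. Under quantile normalization, where the guide was at 0, it was called as a fall. miR-125b-5p is also cut from miR-125b-2 on chromosome 21, whose partner strand was at about 1 to 3 reads per library. The sequences of the miR-100 and miR-125b-1 partner strands have seeds of their own and are shown because they fell beside let-7a-2-3p with no seed in common.
miR-100-3p: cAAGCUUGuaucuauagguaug
miR-125b-1-3p: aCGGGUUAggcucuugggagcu

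**Figure D5:**
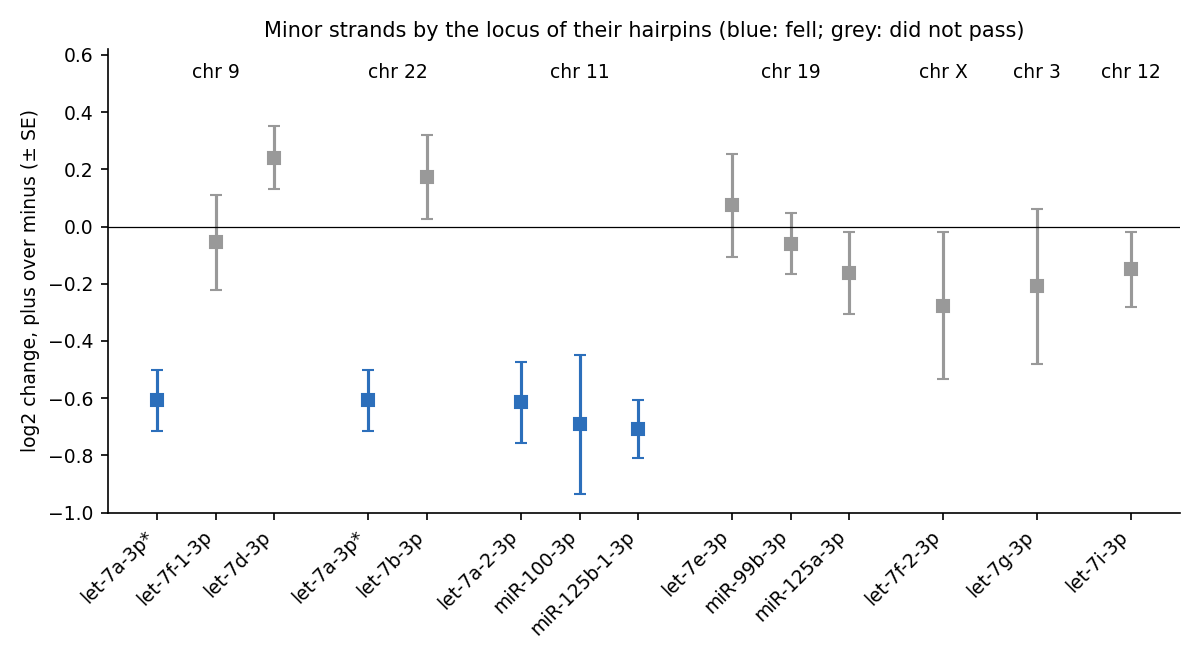
Log2 change, plus over minus, with standard error, of the let-7 minor strands and those of neighbouring hairpins, grouped by the chromosome of the hairpin. let-7a-3p (asterisk) is 1 measurement drawn at both loci that encode it. The strands at the chromosome 11 locus lie at −0.61 to −0.71, and the neighbours of the other let-7a copies lie between −0.06 and 0.24.

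Of the 11 strands in the table from hairpins that neighbour let-7 copies (miR-99a, miR-99b, miR-100, miR-125a, miR-125b and miR-4763), 9 were tested, of which 2 rose, 3 fell and 4 did not pass, beside 28.5% called among all miRNAs tested. The falls were the chromosome 11 strands described above. The rises were the guides beside let-7e on chromosome 19, miR-99b-5p and miR-125a-5p. miR-99b-5p went from 175717 and 171352 in the minus to 208249 and 205604 in the plus libraries, a log2 change of 0.25 (limma, adjusted p = 0.0149). miR-125a-5p went from 39419 and 40096 to 52414 and 48305, a log2 change of 0.34 (limma, adjusted p = 0.0011). Both calls were lost under quantile normalization, without a level filter, without a trend and in each fit that dropped a library, and that of miR-99b-5p also with equal totals. Under quantile normalization miR-99b-5p was at 0, the value given to a strand with the same rank in all 4 libraries. let-7e-5p, from the hairpin 105 bases from miR-99b, was at 0.10 and did not pass. On chromosome 21, miR-99a-5p overlapped between the groups as did its neighbour let-7c, with log2 changes of −0.11 and −0.02.

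The 3' to 5' ratio of the chromosome 19 neighbours also fell, with log2 changes of −0.50 for miR-125a and −0.31 for miR-99b (limma, adjusted p = 0.00276 and 0.0168), while that of let-7e was −0.02. In these pairs the guide was higher in the plus libraries and the partner strand did not pass. Even so, miR-125a-3p was lower in both plus libraries (log2 change −0.16), while miR-99b-3p overlapped between the groups. For let-7a and miR-125b-1 the partner strand was called as a fall. Both ratios on chromosome 19 lost their call with the line as a block, without a level filter, without a trend and in each fit that dropped a library. Under quantile normalization they were −0.13 for miR-125a and −0.08 for miR-99b, neither past the threshold (limma adjusted p = 0.631 and 0.741). The guide miR-99b-5p was at 0 there, so the miR-99b value is that of the partner strand alone.

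Beyond the family, RefSeq lists 2 other human miRNAs with the let-7 seed, miR-4458 and miR-4500, and both were in the table below the level filter. miR-4458 was at 0 in both minus libraries and at 2.04 and 2.03 in the plus libraries, and miR-4500 at 0 in 3 libraries and at 1.02 in plus replicate 1. These levels lie at or under the floor of 3 reads, which was 2.83 to 3.08 normalised counts, and no change was detectable at this depth. The seed GAGGUAG was therefore supplied almost wholly by the 9 family guides in each of the 4 libraries.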

How the data were processed

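Members and lists were chosen with earlier results of these data known. The authors deposited 1 table of signal values, normalised read counts of mature miRNAs at a common library size. That unit is read from the values, of which 86.9% to 100% under 60 lay within 0.1 of a whole number of library-specific steps, so no count model was run. Reads were trimmed with cutadapt per the labels, and the submitters' processing notes name edgeR, TopHat2 2.0.8b and the builds GRCh37 and hg19 with no role. Which counter and miRNA annotation were used is not given in the sources used here. Columns write sh4 where titles write sh2 and were matched by library number and index. No member shared its values with another row.

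Levels and 3' to 5' ratios were compared in R 4.3.3 with limma 3.58.1, on log2(value + 1) at a minimum mean of 10, with a trend, two-sided, with Benjamini-Hochberg adjustment, and the fits were tested on simulated data. A copy-specific 3' strand was paired with the shared 5' strand. A fold change on this scale is understated for low values. Single values had exact permutation tests (Python 3.11.15). All members were eligible to be named. Same-numbered libraries come from 1 line (plus replicate 1 by elimination), and their deviations correlated at 0.06 across 709 miRNAs. Alternatives were other pseudocounts, level filters and scalings, no trend, the line as a block, and each library left out. The scalings of strand ratios were chosen after seeing the data.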

Additional observations from a re-analysis of the deposited data

Results flagged for a closer look

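For 5 of the 18 members the change in line sh1 and that in line sh2 had opposite signs, with 1 library per line and condition, so the difference was not tested. The log2 change in line sh1 minus that in line sh2 was 0.44 for let-7b-3p, 0.13 for let-7c, −0.32 for let-7e-3p, 0.26 for let-7f-1-3p and −0.58 for let-7f-2-3p. let-7f-2-3p was at −0.57 in line sh1 and 0.01 in line sh2, and let-7b-3p at 0.39 and −0.05. None of these 5 was called, and line sh1 was assigned to plus replicate 1 by elimination.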

How the results depend on the processing

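Against 3 called falls and 0 rises among the let-7 members, no level filter and no trend gave 0 falls each, quantile normalization gave 5, median-ratio scaling gave 2 rises and the replicate block gave 1 rise. With 1 library left out the falls ranged from 0 to 2 and the rises stayed at 0. Against 2 fallen strand ratios, no level filter, no trend and the replicate block gave 0, and leaving out a library gave 0 to 1. Against 2 rises and 3 falls among the neighbouring strands, no level filter and no trend gave 0 of either, quantile normalization gave 0 rises, equal totals gave 1 rise, and a minimum mean of 100 gave 1 fall. With a library left out these were 0 rises and 0 to 1 falls. The replicate block changed no other call among members and neighbours than those named in the results. The cause of these shifts was not tested. Under quantile normalization a strand with the same rank in all 4 libraries is set to 0 change, and miR-100-5p, miR-99b-5p and let-7f-5p were at 0. Calls over the whole table, 95 up and 107 down, became 121 and 83 under median-ratio scaling and 68 and 107 with equal totals, whose shifts of the median log2 change were 0.06 and −0.06, and 47 and 54 under quantile normalization. The log2 ratio of the summed main strands was 0.03 and ranged from −0.03 to 0.09 with a library left out. The scalings were run for strand ratios after the data had been seen. Median-ratio scaling and equal totals gave 2 falls and 0 rises, and quantile normalization 1 fall and 1 rise. Read depth limits let-7f-2-3p and let-7g-3p, at about 38 to 61 reads per library.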
